A study of Homo sapiens with 78 samples.

Results

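Integrins are receptors made of 1 alpha and 1 beta chain, and the pairing of the chains sets which ligand a cell can hold. Leukocytes are known for alpha L with beta 2, which binds the ICAM proteins of other cells, and for alpha 4, which pairs with beta 1 or beta 7. Cells that grow attached are known for alpha 3, alpha 6 and alpha V, which pair with beta 1, beta 3, beta 4, beta 5, beta 6 or beta 8 to hold laminin, fibronectin, vitronectin and other matrix proteins. The 10 subunit genes described here were chosen by name as the leukocyte set (*ITGAL*, *ITGB2*, *ITGB7* and *ITGA4*) and the adherent-cell set (*ITGA3*, *ITGA6*, *ITGAV*, *ITGB1*, *ITGB3* and *ITGB5*). They are 10 of 26 integrin subunit genes and of 58388 genes with a transcript among the quantified targets, 34290 of which had a count in any well. *ITGA4*, *ITGA6* and *ITGB1* are known in both kinds of cell, so the names of the sets are labels and not a claim about where a gene is used.

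The libraries were made from single cells sorted by FACS, 1 cell per well. A375 is a human melanoma line that grows attached. Its cells were grown in DMEM, stained with an anti-CD47 antibody and sorted in PBS. Jurkat, clone E6-1, is a human T cell leukemia line that grows in suspension. Its cells were grown in RPMI, stained with an anti-CD81 antibody and sorted into lysis solution. Total RNA libraries of 21 A375 wells and 18 Jurkat wells were made with each of 2 kits, #634413 (the SMARTer Stranded Pico v2 kit) and #634444 (SMART-Seq Stranded Kit). The labels name no added allele or agent for either line. The cell line and the sort buffer, medium and stain changed together and cannot be told apart. No separate cultures are named, so the wells of a line and kit stand for 1 sample. No test between groups was therefore made, and every interval below covers counting error only.

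Total counts per well ran from 250 to 2356198 with a median of 718370. Of the 78 wells, 67 held at least 25% of that median and are called deep, while all 11 others were A375 wells (6 with kit #634413 and 5 with kit #634444). The T cell markers were high in Jurkat as a list, while the melanoma markers in A375 rested mostly on *CSPG4* and *SOX10*. The 10 T cell markers summed to 1848 and 2144 CPM (counts per 1000000 counts) in Jurkat and to 5.35 and 10.6 CPM in A375 with kits #634413 and #634444, and 5 and 4 of them were at 0 counts in A375. The 10 melanoma markers summed to 898 and 906 CPM in A375 and to 3.05 and 3.64 CPM in Jurkat, where 9 and 3 of them were at 0. In A375, *CSPG4* and *SOX10* had 8276 and 5241 of the 14276 melanoma marker counts with kit #634413. With kit #634444 they had 6866 and 4253 of 12119. Of these 10, *DCT*, *MLANA*, *PMEL*, *TYR* and *TYRP1* had fewer than 50 counts over the 2 lines with at least 1 kit. *MLANA* had 7 counts in A375 and 16 in Jurkat with kit #634444.

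A single sequence carries a choice between forms of a member and is shown for that reason. *ITGA3* transcripts either hold or skip an exon near their 3′ end, which changes the last stretch of the coding sequence inside the cell. In GENCODE v44, *ITGA3-202* holds it as exon 25 of 26 (chr17:50088225-50088366, plus strand, hg38) and ends its reading frame there, at chr17:50088333-50088335. *ITGA3-201* skips it and stops at chr17:50089263-50089265. The 111 bases from the start of the exon to its stop codon are printed with the stop codon in capitals, read from hg38 at chr17:50088225-50088335.
ITGA3 exon 25: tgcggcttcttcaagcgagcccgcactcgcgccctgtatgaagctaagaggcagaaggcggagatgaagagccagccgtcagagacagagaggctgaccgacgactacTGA

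The 2 lines held nearly the same summed level of these 10 chosen subunits and filled it with different genes. Summed over the 10, A375 had 1844 CPM (95% Poisson interval 1823 to 1865) and Jurkat 1860 CPM (1839 to 1882) with kit #634413. With kit #634444 the sums were 1459 CPM (1439 to 1480) and 1462 CPM (1441 to 1483). Over all 26 subunit genes the sums were higher in A375, at 2582 CPM (2557 to 2607) against 1961 CPM (1940 to 1983) with kit #634413 and 2328 CPM (2302 to 2354) against 1582 CPM (1560 to 1604) with kit #634444. Of the level summed over the 10, the leukocyte set took 86.4% and 82.4% in Jurkat against 3.38% and 3.29% in A375. In Jurkat *ITGA4* alone held 20794 of the 25301 counts of the leukocyte set with kit #634413 and 11818 of 15208 with kit #634444. Nearly all of the leukocyte share in A375 was also *ITGA4*, and most of the adherent-cell share in Jurkat was *ITGB1*.

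A gene was counted as different where its CPM differed at least 4-fold in the same direction with both kits, among genes with at least 50 counts over the 2 lines with each kit. Among all 14543 such genes, 15.4% were higher in A375 and 6.7% were higher in Jurkat, and the median log2 ratio of A375 over Jurkat was 0.13 with kit #634413 and 0.09 with kit #634444. Of the leukocyte set, 3 of 4 passed the count filter and these 3 were higher in Jurkat. Of the adherent-cell set, 6 of 6 passed and 4 were higher in A375. The sets were picked for what the genes are known to do, with results of these libraries already known, so the counts describe the genes and do not test the sets.

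*ITGA4* (ENSG00000115232, chr2:181457202-181538940, plus strand) was the member with the highest level in Jurkat. It encodes alpha 4, the chain that binds VCAM1 and fibronectin with beta 1. In deep Jurkat wells its CPM ran from 328 through a median of 1139 to 2432 with kit #634413, and from 309 through 886 to 1741 with kit #634444. In deep A375 wells it ran from 0 through 68.4 to 171 and from 0 through 41.5 to 177. Every Jurkat well was above every deep A375 well made with the same kit. Over the pooled wells it was 1321 CPM in Jurkat and 61.2 CPM in A375 with kit #634413, a 21.6-fold difference (95% interval 20.2 to 23.04), and 936 against 44.4 CPM with kit #634444, a 21.1-fold difference (19.4 to 22.9). Most A375 wells also held counts of the gene, 14 of 15 and 15 of 16 deep wells with the 2 kits.

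*ITGAL* (ENSG00000005844, chr16:30472658-30523567, plus strand) encodes alpha L, the chain that binds ICAM proteins. With kit #634413 its CPM in Jurkat wells ran from 0 through 103 to 665, and it was at 0 in all 15 deep A375 wells. With kit #634444 it ran from 34.3 through 104 to 354 in Jurkat wells and from 0 through 0 to 11.4 in deep A375 wells. The Jurkat well at 0 with kit #634413 was the only one to overlap the deep A375 wells, and the shallow A375 well with 2 counts also lay above 1 other Jurkat well. The pooled ratio of Jurkat over A375 was 1361 (410 to 12255) with kit #634413, where A375 had 2 counts in 1 shallow well, and 110 (67.8 to 194) with kit #634444, where A375 had 16 counts in 2 wells. Without the A375 well that held 14 of those counts, replicate 14, the ratio was 802. All A375 counts of *ITGAL* were on *ITGAL-204*, a model with a retained intron, while 65.4% and 69.4% of the Jurkat counts were on protein-coding models.

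*ITGB2* (ENSG00000160255, chr21:44885953-44931989, minus strand) encodes beta 2, the only beta chain that pairs with alpha L. It had counts in all 36 Jurkat wells and in none of the 42 A375 wells. Its CPM in Jurkat ran from 21.8 through 98.8 to 222 with kit #634413 and from 38.3 through 128 to 264 with kit #634444. The depth of A375 allowed up to 0.189 and 0.224 CPM for a count of 0, taken as 3 counts over the group, so the pooled level was at least 529-fold and at least 607-fold higher in Jurkat.

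*ITGB7* (ENSG00000139626, chr12:53191323-53207282, minus strand), the other partner of alpha 4 and the chain that binds MADCAM1 in the gut wall, did not follow the rest of its set. It had 0 counts in Jurkat with kit #634413 and 4 counts in 2 wells with kit #634444. In A375 it had 15 counts in 1 well and 32 counts in 3 wells, which is 0.944 and 2.39 CPM. Both kits left it under the count filter, and 25 of the 32 A375 counts were on *ITGB7-211*, a model with a retained intron.

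**Figure D1:**
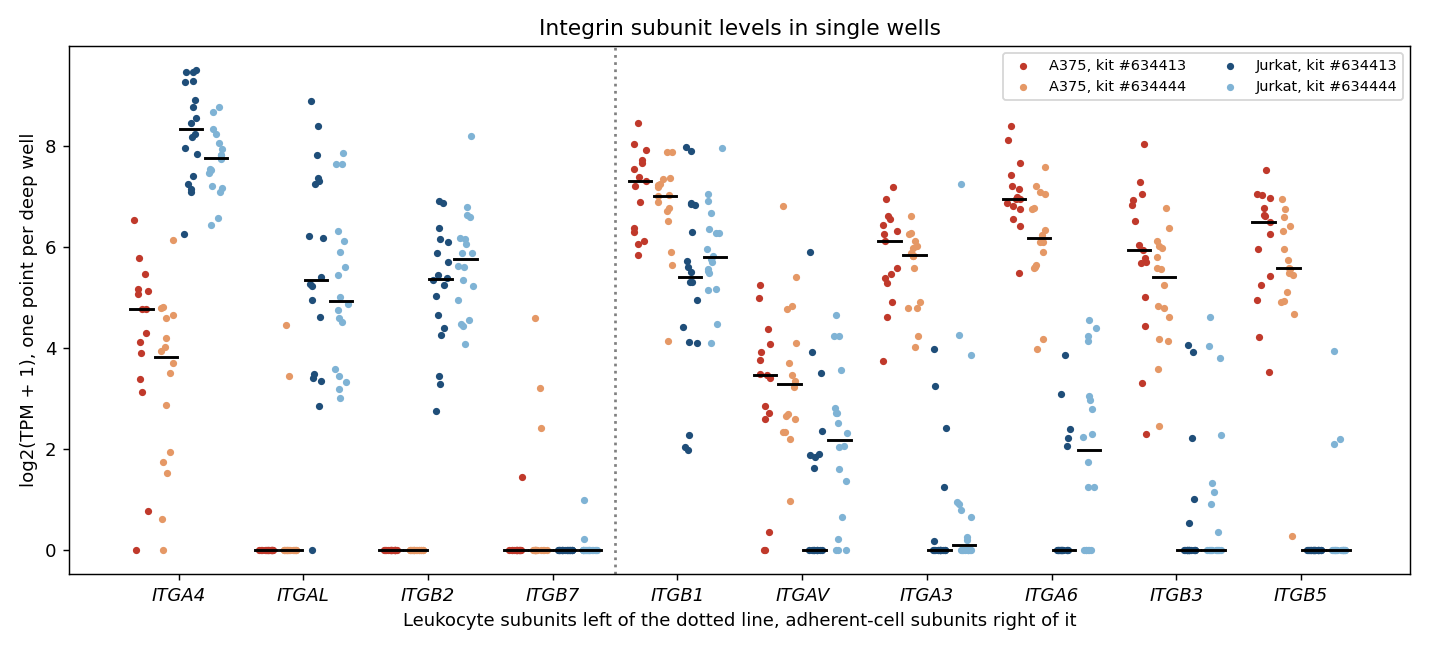
Points give log2(TPM + 1) of each member in each deep well, coloured by line and kit, and black bars are medians over the wells of a group. *ITGA4*, *ITGAL* and *ITGB2* have higher medians in Jurkat, and *ITGA3*, *ITGA6*, *ITGB3* and *ITGB5* have higher medians in A375. Single Jurkat wells reach into the A375 range of the latter genes on this scale. They do so for *ITGA3* and *ITGB3* with both kits and for *ITGA6* and *ITGB5* with kit #634444. *ITGB1* and *ITGAV* overlap most, and the median of *ITGB7* is 0 in all 4 groups.

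*ITGB1* and *ITGAV*, the chains with the widest choice of partners, differed least. *ITGB1* (ENSG00000150093, chr10:32887273-33005792, minus strand) encodes beta 1, which pairs with alpha 3, alpha 4, alpha 6 and alpha V among others, and every deep well of both lines held counts of it. Its CPM ran from 260 through 403 to 556 in deep A375 wells and from 18.5 through 132 to 530 in Jurkat wells with kit #634413, and the ranges overlapped. With kit #634444 they ran from 89.3 through 374 to 584 and from 58.3 through 181 to 417, again with overlap. The pooled level was 2.10-fold (2.01 to 2.20) and 2.02-fold (1.92 to 2.12) higher in A375, which is below the 4-fold limit.

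*ITGAV* (ENSG00000138448, chr2:186590010-186680901, plus strand) encodes alpha V, which binds ligands with an arginine-glycine-aspartate motif. Its CPM ran from 0 through 67.4 to 230 in deep A375 wells and from 0 through 0 to 173 in Jurkat wells with kit #634413, and from 13.4 through 65.3 to 190 and from 0 through 23.8 to 159 with kit #634444. The pooled level was 3.20-fold (2.88 to 3.56) and 2.73-fold (2.42 to 3.09) higher in A375. A single Jurkat well, replicate 15, held 45.5% of the Jurkat counts with kit #634413, and without it the ratio was 5.42. Leaving out the A375 well with the most counts instead gave a ratio of 2.79.

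The laminin-binding chains were high in A375 and rare in Jurkat. *ITGA3* (ENSG00000005884, chr17:50055968-50090481, plus strand) encodes alpha 3. Its CPM ran from 108 through 255 to 691 in deep A375 wells and from 0 through 0 to 106 in Jurkat wells with kit #634413, and from 143 through 237 to 485 and from 0 through 0.445 to 91.9 with kit #634444. The lowest deep A375 well was above the highest Jurkat well with each kit, by little with kit #634413. Pooled, *ITGA3* was 25.3-fold (21.7 to 29.8) and 32.1-fold (26.4 to 39.6) higher in A375. Many of the Jurkat counts came from 1 well with each kit, 50.6% from replicate 8 and 42.7% from replicate 12, and the ratios were 48.8 and 53.9 without them. With the leading A375 well left out instead, the ratios were 22.5 and 32.4. On mean TPM over all wells the log2 ratio with kit #634444 was 1.95, below the 4-fold limit, and 4.28 without Jurkat replicate 12. In that well 25 counts were on *ITGA3-210*, a model of 399 bases with a retained intron.

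*ITGA6* (ENSG00000091409, chr2:172427354-172506459, plus strand) encodes alpha 6, which pairs with beta 1 and beta 4. Its CPM ran from 186 through 512 to 1424 in deep A375 wells and from 0 through 0 to 69.5 in Jurkat wells with kit #634413, without overlap. With kit #634444 the lowest deep A375 well, at 84.1 CPM, was just above the highest Jurkat well, at 82.03 CPM. The pooled level was higher in A375 by a log2 ratio of 5.64 with kit #634413 (95% interval of the ratio 43.1 to 58.3) and by 3.70, or 12.97-fold (11.6 to 14.5), with kit #634444. Jurkat counts came from 5 of 18 wells with the first kit and 12 of 18 wells with the second. Replicate 16 held 44.6% of those with kit #634413, and the ratio was 83.8 without it. The ratio was 44.6 with the leading A375 well of that kit left out instead.

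*ITGB3* and *ITGB5* encode beta 3 and beta 5, partners of alpha V in vitronectin receptors. *ITGB3* (ENSG00000259207, chr17:47253827-47313743, plus strand) ran from 23.2 through 397 to 924 CPM in deep A375 wells and from 0 through 0 to 105 CPM in Jurkat wells with kit #634413, and from 43.3 through 191 to 661 CPM and from 0 through 0 to 106 CPM with kit #634444. The ranges overlapped, although the Jurkat median was 0 with both kits. The pooled level was 30.1-fold (26.1 to 34.9) and 29.8-fold (24.6 to 36.3) higher in A375. Jurkat replicate 12 held 60.5% of the Jurkat counts with kit #634413 and replicate 4 held 44.6% with kit #634444, and the ratios were 70.9 and 51.7 without them. Leaving out the leading A375 well instead gave 25.9 and 26.3.

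*ITGB5* (ENSG00000082781, chr3:124761948-124901418, minus strand) was counted in all 31 deep A375 wells, at 18.8 through 79.8 to 193 CPM with kit #634413 and 2.66 through 72.7 to 190 CPM with kit #634444. No Jurkat well held a count with kit #634413, so the pooled level was at least 471-fold higher in A375. With kit #634444 the ratio was 47.005 (31.4 to 73.7), since 3 Jurkat wells held 24 counts. Replicate 15 held 16 of them, and the ratio was 132 without it.

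Levels of different genes were compared as TPM, which allows for transcript length, by the mean over deep wells. In A375 *ITGB1* ranked first, at 160 ± 85.5 TPM (SD, n = 15 wells) and 128 ± 59.5 TPM (SD, n = 16 wells), and *ITGA6* second, at 147 ± 75.7 and 84.1 ± 48.9 TPM. In Jurkat *ITGA4* ranked first, at 377 ± 221 and 224 ± 97.2 TPM (SD, n = 18 wells each). *ITGAL*, *ITGB1* and *ITGB2* followed it, at 104 ± 131, 68.2 ± 74.5 and 46.99 ± 33.9 TPM with kit #634413 and at 61.4 ± 72.1, 72.3 ± 54.2 and 67.1 ± 63.6 TPM with kit #634444. Neighbours in the order were compared by whether their means differed by more than the larger of their 2 SDs over wells. In Jurkat *ITGA4* stood apart in this way from the next member with both kits, and *ITGB2* from *ITGAV* with kit #634413. In A375 with kit #634413 *ITGA3* stood apart from *ITGA4* and *ITGAV* from *ITGB7*, and with kit #634444 no neighbours did. Other neighbours differed by no more than that spread.

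Of the 16 other subunit genes, 9 passed the count filter. *ITGA2*, *ITGA7*, *ITGB4* and *ITGB8* were at least 4-fold higher in A375 with both kits and 0 were higher in Jurkat. *ITGB8*, the beta chain that pairs with alpha V to activate latent TGF-beta, had the highest CPM among them in A375, at 308 and 490 CPM against 0.0666 and 0.951 CPM in Jurkat. *ITGB4*, the partner of alpha 6 in hemidesmosomes, had 82.9 and 60.3 CPM in A375 against 0 and 3.09 CPM in Jurkat. *ITGA5*, the fibronectin receptor chain, was 4.65-fold higher in A375 with kit #634413 and 2.03-fold with kit #634444, so it was not counted. *ITGAE*, which pairs with beta 7 in T cells of epithelia, was 6.28-fold (4.80 to 8.29) and 2.44-fold (1.99 to 2.99) higher in Jurkat. With kit #634413 the *ITGAE* ratio was 3.11 without Jurkat replicate 7, which held 54.2% of the Jurkat counts, and 11.7 without A375 replicate 12. No *ITGAE* count in any group was on a protein-coding model, so these values are of other models, mainly *ITGAE-207*, which has no defined coding sequence. *ITGAM*, the alpha chain of the complement receptor of myeloid cells, had 0 counts in all 4 groups.

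**Figure D2:**
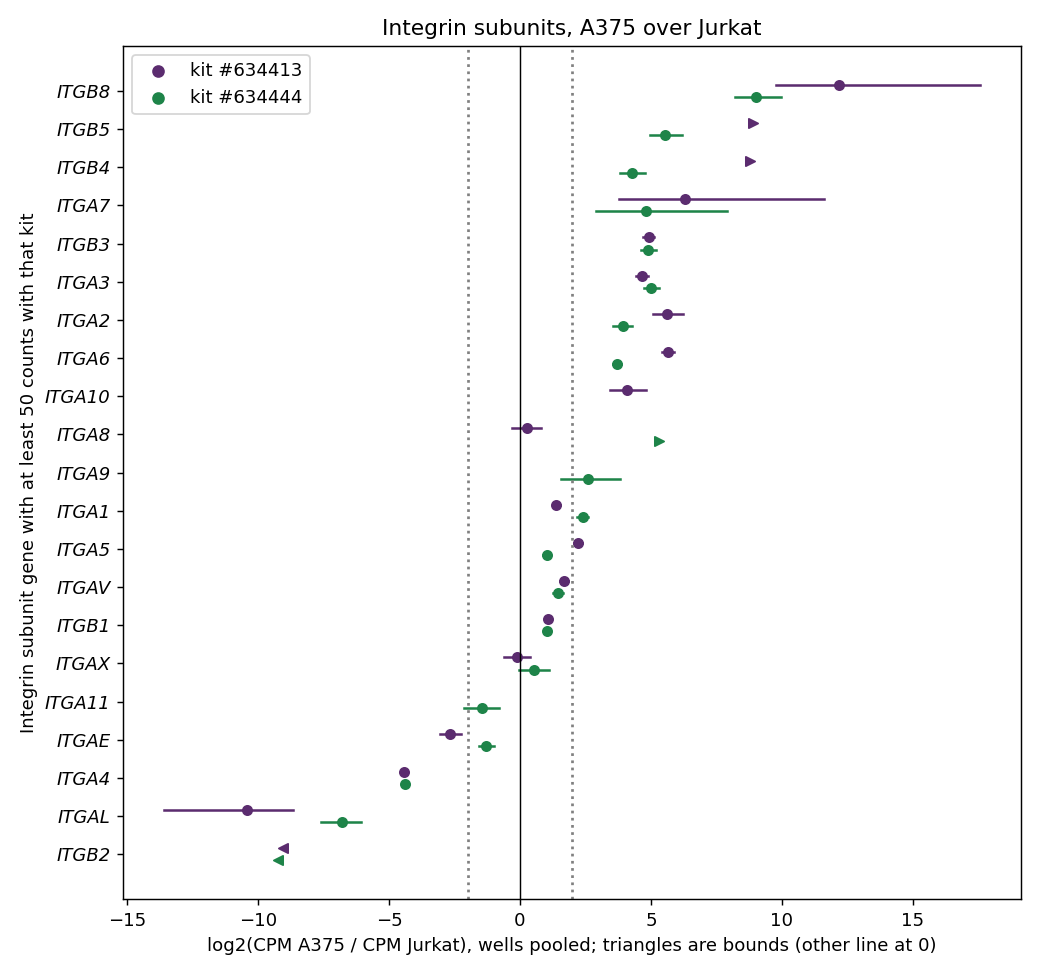
The log2 ratio of pooled CPM, A375 over Jurkat, is plotted for each integrin subunit gene with at least 50 counts with a kit, one colour per kit. Lines are 95% counting intervals, triangles are bounds where the other line was at 0, and dotted lines mark 4-fold. *ITGB8* lies furthest to the A375 side, *ITGAL* and *ITGB2* furthest to the Jurkat side, and *ITGB1* and *ITGAV* between the dotted lines.

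Both chains of a receptor have to be made by the same cell, so the wells were read for partners. *ITGAL* and *ITGB2* were counted together in 17 of 18 and 18 of 18 Jurkat wells and in 0 of 15 and 0 of 16 deep A375 wells. *ITGA4* and *ITGB1* were counted together in all 36 Jurkat wells and also in 14 of 15 and 15 of 16 deep A375 wells. *ITGA4* and *ITGB7* shared 0 and 2 Jurkat wells and 1 and 3 deep A375 wells. Counts of *ITGA4* thus shared nearly every deep well with those of *ITGB1* and few with those of *ITGB7*. Since *ITGB1* had counts in every deep well, its shared wells here and below only repeat the wells with the alpha gene. Pairing of the proteins was not measured.

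*ITGA3* with *ITGB1* and *ITGA6* with *ITGB1* were counted together in all 31 deep A375 wells. In Jurkat, *ITGA3* with *ITGB1* shared 5 and 9 of 18 wells and *ITGA6* with *ITGB1* shared 5 and 12. With kit #634444 only 3.95% of the Jurkat *ITGA3* counts were on protein-coding models, so those shared wells rest mainly on other models. *ITGAV* shared 13 of 15 and 16 of 16 deep A375 wells with each of *ITGB1*, *ITGB3*, *ITGB5* and *ITGB8*. In Jurkat, *ITGAV* with *ITGB1* shared 8 and 15 wells, with *ITGB3* 2 and 8, with *ITGB5* 0 and 3 and with *ITGB8* 1 and 2. With each deep well thinned to 303665 counts, no number of shared wells moved by more than 3, and *ITGAV* with *ITGB3* in Jurkat wells of kit #634444 moved most, from 8 to 5. A deep A375 well held a median of 7 of the 10 subunits with each kit, and a Jurkat well held 5 with kit #634413 and 7 with kit #634444. A well at 0 may still have held the RNA, since 1 count was the least that could be seen.

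**Figure D3:**
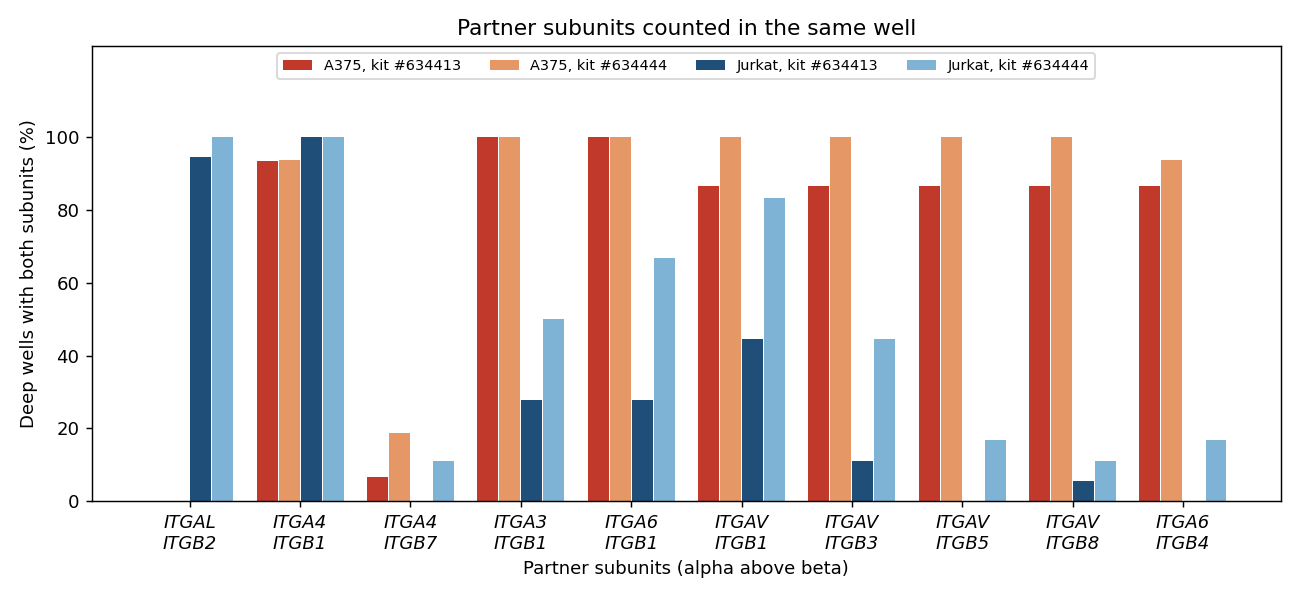
Bars give the percentage of deep wells in which both chains of a known receptor had a count, by line and kit. *ITGAL* with *ITGB2* is seen in Jurkat alone, *ITGA4* with *ITGB1* in both lines, and the *ITGA3*, *ITGA6* and *ITGAV* pairs in most A375 wells and in fewer Jurkat wells.

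Integrins work through proteins on both sides of the membrane, and 4 lists of these were read in the same way. Leukocytes switch integrins on through RAP1 and its partners, talin and kindlin 3. Of 10 leukocyte activation and adaptor genes, 10 passed the filter, 8 were higher in Jurkat and 0 in A375, with a median log2 ratio of A375 over Jurkat of −6.19 and −7.22, with genes at 0 in 1 line taken at their bound here and in the lists below. *FERMT3*, which encodes kindlin 3, had log2 ratios of −6.34 and −10.28, the latter resting on 1 count in A375, with a Jurkat over A375 ratio of 1245 (223 to 49203). *APBB1IP*, which encodes the RAP1 effector RIAM, had 0 counts in A375, so its ratios of −10.11 and −10.03 are bounds. *RAP1B* and *STK4* lay near 0, at 0.17 and −0.34 for *RAP1B* and at 0.23 and 0.07 for *STK4*.

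Of 16 focal adhesion genes, 15 passed the filter, 8 were higher in A375, 1 in Jurkat and 6 neither, with medians of 2.41 and 2.77. *FERMT1*, which encodes kindlin 1, had 1499 and 1000 counts in A375 against 1 and 0 in Jurkat. *PARVA*, an actin-binding parvin, and *BCAR1*, a scaffold of the focal adhesion, were at 0 in Jurkat with both kits. Vinculin (*VCL*) had log2 ratios of 4.19 and 3.99 and paxillin (*PXN*) of 3.78 and 4.24. The parvin family was split between the lines, since *PARVG* had 586 and 550 counts in Jurkat against 0 and 2 in A375. Talin 1 (*TLN1*), which joins integrins to actin in both kinds of cell, was at 370 and 370 CPM in A375 and 507 and 567 CPM in Jurkat. *LIMS2* was the 1 gene higher in Jurkat, with 91 and 120 counts against 5 and 0.

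Among ligands, 9 of 13 matrix genes passed the filter and all 9 were higher in A375, with medians of 9.03 and 9.18. They included the laminin chains *LAMA4*, *LAMA5*, *LAMB1*, *LAMB2* and *LAMC1*, and *TNC*, which had 12824 and 12515 counts in A375 and 0 in Jurkat. *LAMB1* had the highest CPM of the 9, at 1278 and 1339 CPM in A375 against 5.59 and 10.9 CPM in Jurkat. *FN1* encodes the fibronectin that alpha 4, alpha 5 and alpha V bind. In A375 it was at 4.59 CPM (73 counts) with kit #634413 and at 189 CPM (2528 counts) with kit #634444. The kits were used on different cells, and whether few wells held these counts was not tested. Of 8 genes for proteins that leukocyte integrins bind on other cells, 4 passed. *ICAM1* was higher in A375, at 81.9 and 80.04 CPM against 0.0635 and 0.396 CPM, *ICAM2* and *ICAM3* were higher in Jurkat, and *ICAM5* was neither, at log2 ratios of 1.503 and 1.88. *VCAM1* had 8 and 0 counts in A375 and 0 in Jurkat.

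**Figure D4:**
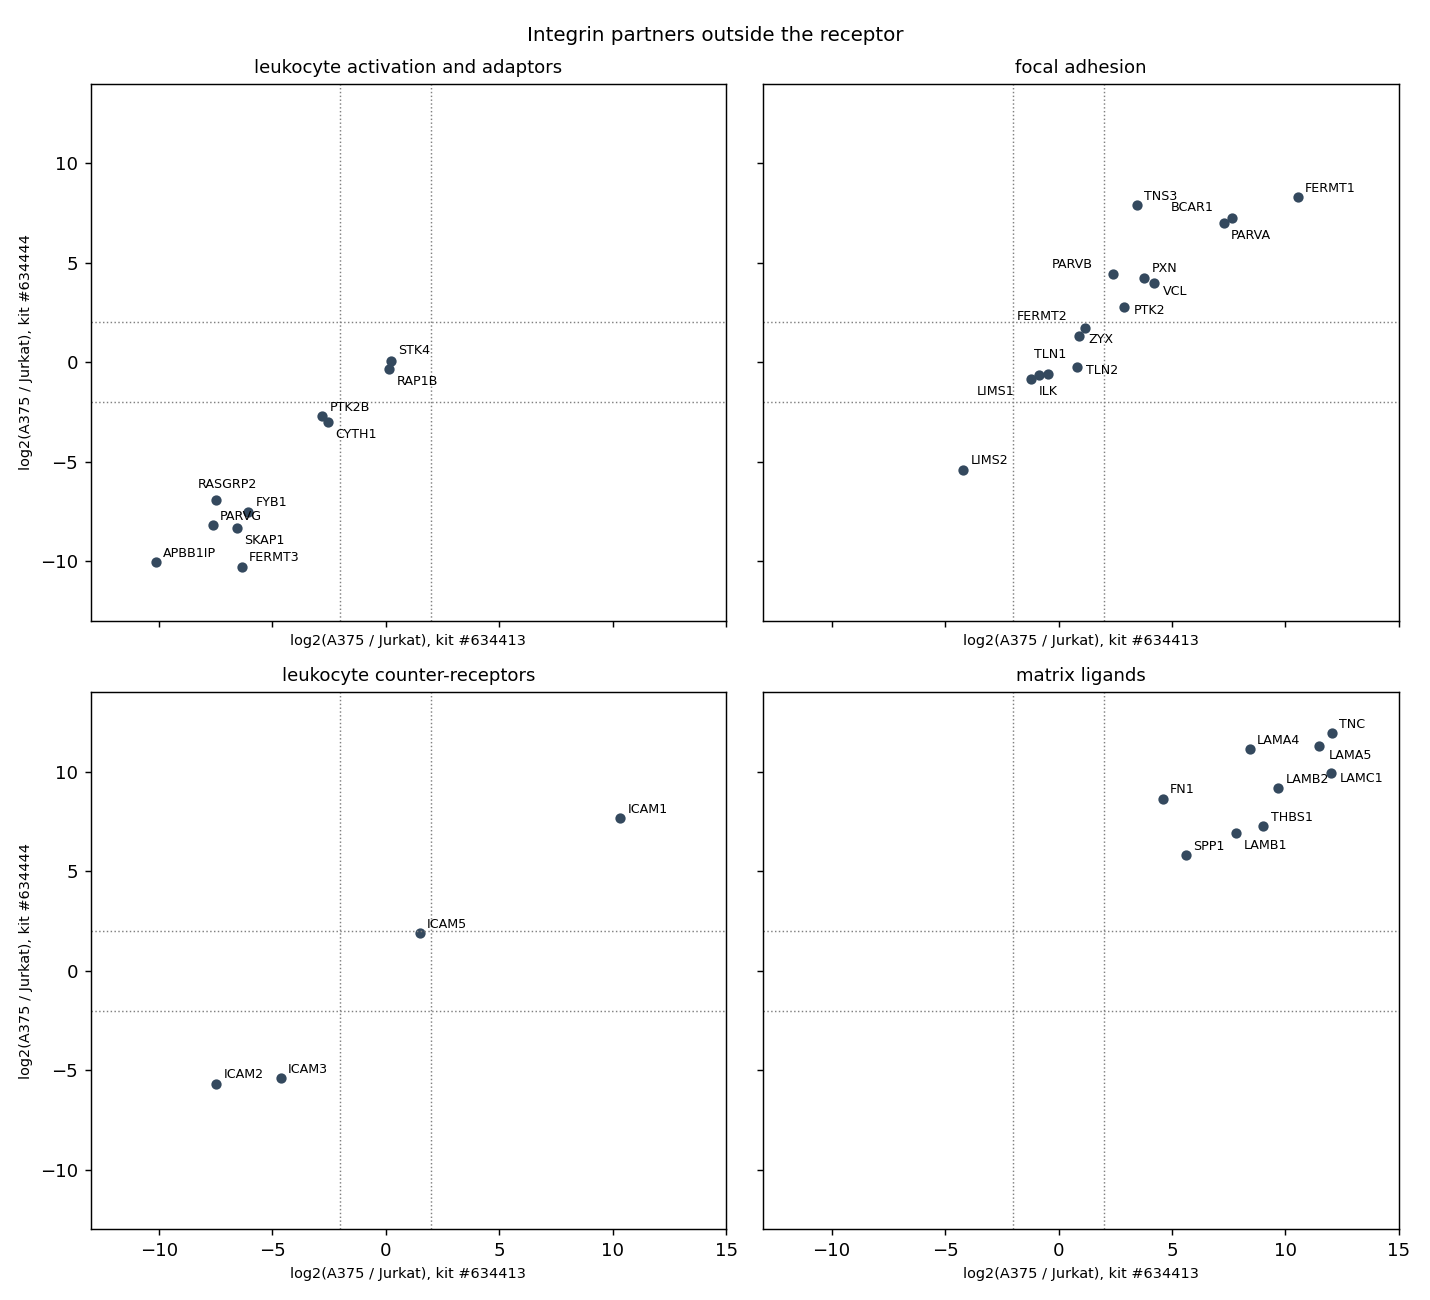
Each point is a gene past the count filter with both kits, placed by its log2 ratio of A375 over Jurkat with kit #634413 (x axis) and kit #634444 (y axis), and dotted lines mark 4-fold. Ratios against a line at 0 counts are bounds. Leukocyte activation genes lie at the Jurkat side or near 0, matrix ligands at the A375 side, and focal adhesion genes spread over both.

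The members were also compared between the kits within a line. The filter here was at least 50 counts over the 2 kits within that line. Among all genes past the filter, 6.1% of 16337 differed at least 4-fold between the kits in A375 and 12.1% of 13827 in Jurkat. Of the members, 0 of 7 past the filter in A375 and 0 of 8 in Jurkat did so, which at these shares says little about the members. In A375, *ITGA6* had a ratio of kit #634444 over kit #634413 of 0.640 (0.617 to 0.663) and *ITGB3* of 0.694 (0.665 to 0.724), while *ITGA3* was at 0.974 (0.931 to 1.02). In Jurkat, *ITGA4* was at 0.708 (0.693 to 0.725) and *ITGB2* at 1.36 (1.27 to 1.46), and *ITGA6* was at 2.46 (2.05 to 2.97). Without Jurkat replicate 16 of kit #634413 the *ITGA6* ratio was 4.13, past the 4-fold limit. The Jurkat ratios of *ITGA3*, *ITGAV* and *ITGB3*, at 0.769, 0.963 and 0.703, turned to 1.48, 1.63 and 1.65 without the well with the most counts of each with kit #634413 (replicates 8, 15 and 12). Without the leading well of kit #634444 (replicates 12 and 4) the *ITGA3* and *ITGB3* ratios were 0.458 and 0.405. Protein-coding models held 98.5% of the Jurkat *ITGA3* counts with kit #634413 and 3.95% with kit #634444. On these models alone, *ITGA3* in Jurkat was at 10.3 and 0.317 CPM. Under this filter within Jurkat, *ITGB5* went from 0 counts with kit #634413 to 24 with kit #634444.

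The forms of *ITGA3* were read from the exon printed above. In A375 the form that holds it, *ITGA3-202*, had 3273 counts against 143 for *ITGA3-201* with kit #634413, or 95.8% of the 2 (95% exact binomial interval 95.1% to 96.5%), and 2914 against 109, or 96.4% (95.7% to 97.0%), with kit #634444. In Jurkat the counts were 69 against 93 from 2 wells each with kit #634413, or 42.7% (34.9% to 50.6%), and 0 against 4 with kit #634444. The Jurkat values rest on so few wells that the share cannot be read as one of the line. Kallisto divides reads that both forms can explain, and the deposited length of *ITGA3-202* was 4888 bases against 4889 in GENCODE v44.

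Other members differed in how far 1 model led. *ITGB1-201* held 75.3% and 85.5% of the *ITGB1* counts in A375 and 83.0% and 79.8% in Jurkat, and *ITGB3-201* held 98.0% and 95.3% of the *ITGB3* counts in A375. *ITGA6-201* held 59.1% and 74.4% of the *ITGA6* counts in A375. *ITGAL*, *ITGB2*, *ITGA4*, *ITGAV* and *ITGB5* were spread over several models. In Jurkat *ITGAL-201* and *ITGAL-202* held 30.5% and 28.6% of the *ITGAL* counts with kit #634413, and the leading *ITGB2* model held 23.2% with kit #634413 (*ITGB2-207*) and 32.6% with kit #634444 (*ITGB2-206*). In Jurkat the counts of *ITGA4* were split between *ITGA4-203*, at 35.8% and 53.9%, and *ITGA4-201*, at 34.9% and 19.02%, which is a shorter model of 2070 bases. Models with a retained intron and others without a coding sequence held the rest of the *ITGA4* counts. Protein-coding models held 74.02% and 74.9% of them in Jurkat and 61.95% of them in A375 with kit #634413.

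Antisense, divergent and pseudogene entries named after a member were read beside it where they had at least 50 counts over all wells. *ITGB1P1*, a processed pseudogene of *ITGB1*, was assigned 16.1 and 25.3 CPM in A375 and 19.5 and 11.5 CPM in Jurkat. All 579 of its 31-base words in GENCODE v44 also occur in *ITGB1* transcripts of that release. The Ensembl v91 sequences that Kallisto used were not compared. The division of counts between the 2 is uncertain, though the level of *ITGB1P1* was small beside the 182 to 398 CPM of *ITGB1*. *ITGB2-AS1*, which lies antisense to *ITGB2*, followed it with 4.26 and 7.45 CPM in Jurkat and 0 and 0.374 CPM in A375. The libraries were stranded and were quantified as such.

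By rank correlation over the 67 deep wells and 10584 genes, the genes most like the summed leukocyte set were *LCP1* (Spearman's rho 0.858), *ARHGDIB* (0.846) and *ARHGAP30* (0.842), and those most like the summed adherent-cell set were *CSPG4* (0.873), *TIMP3* (0.871) and *IGF2BP2* (0.870). Wells of a group share their line and kit, so these values describe the split between the lines and carry no test.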

How the data were processed

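Single A375 and Jurkat cells were profiled by total RNA sequencing, and wells were grouped by the line and kit in their labels. The authors trimmed 3 nucleotides from read 2, quantified Ensembl v91 transcripts (GRCh38, hg38) with Kallisto 0.43.1 in stranded mode, and deposited estimated counts, which are not normalized, and TPM, which Kallisto derives from the same counts and transcript lengths. Here transcripts were summed to genes with GENCODE v44 (195850 of 200206 matched). CPM used all Ensembl transcript counts of the pooled wells, without rDNA and spikes. Intervals are 95% exact Poisson, conditional binomial (ratios) or Clopper-Pearson (shares) and cover counting error only. Only the ratios and their intervals were tested on simulated data, which were Poisson counts as the intervals assume. PCR reads are not independent molecules. Ratios against 0 used 3 counts over the group, so the bounds hold at that setting and are not limits of these intervals. No model was fitted, since a group is 1 sample. The members and lists were chosen with earlier results of these data known. They comprise the 10 subunits, the 16 others, leukocyte activation, focal adhesion, counter-receptor, matrix and marker genes, and the 3 genes closest in rank to each set. Among 726 pairs of wells within a group, 0 held the same values. Wells were sorted to hold 1 cell each, and no doublet caller was run. In A375, 2 of 21 wells with kit #634413 and 4 of 21 with kit #634444 held no count of any T cell or melanoma marker. Library pools are not named. Alternatives were other denominators, TPM, means of wells, deep or protein-coding-rich wells, protein-coding transcripts, other fold limits, 5 counts for detection, and thinning. Leaving out the well with the most counts was added after the values had been seen. Python 3.11.15, numpy 2.4.6, pandas 2.3.3, scipy 1.17.1 and matplotlib 3.10.9 were used.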

Additional observations from a re-analysis of the deposited data

Results flagged for a closer look

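*ITGA11*, the alpha 11 chain of a collagen receptor, lay on opposite sides with the 2 kits. Its log2 ratio of A375 over Jurkat was 3.44 with kit #634413, from 22 counts in A375 and 2 in Jurkat, and −1.45 with kit #634444, from 29 counts in A375 and 75 in Jurkat. The difference between the kits was not tested. A single A375 well held 86.6% of the A375 counts with kit #634413, and a single Jurkat well held 78.7% of the Jurkat counts with kit #634444. Without that Jurkat well the log2 ratio with kit #634444 was 0.70, and without that A375 well the log2 ratio with kit #634413 was 0.61.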

How the results depend on the processing

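The count of leukocyte subunits higher in Jurkat was 3 under all 9 alternatives. The count of adherent-cell subunits higher in A375 was 4, except 3 with mean TPM, where *ITGA3* with kit #634444 fell below 4-fold, and 6 with a 2-fold limit. None of 137 recomputed log2 ratios of members was reversed, although that of *ITGB7* with kit #634413 went from 2.31 to 0 with mean TPM. The number of members 4-fold apart between kits in Jurkat went from 0 to 1 with TPM, with protein-coding transcripts only and with a 2-fold limit. The share of the leukocyte set, in the order A375 and Jurkat with kit #634413 and then with kit #634444, was 4.93%, 86.96%, 4.97% and 78.01% with TPM and 2.27%, 83.0%, 1.999% and 78.95% with protein-coding transcripts only, and in Jurkat it was 87.01% and 81.0% as a mean of deep wells. The cause was not tested. Calls higher in A375 were 69.7% of all 4-fold calls. No paired analysis was possible because the labels give no replicate numbers, and those used here follow the order of deposition and tie no wells to each other. Jurkat values of *ITGA3*, *ITGA6* and *ITGB3* rest on few wells, and depth limits what a count of 0 can show.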
